A study of Rattus norvegicus with 12 samples.

Results

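Ccne2, Ccnd1, Cdk2ap2 and Atad5 are genes of the cell cycle and of DNA replication that the study lists among its spermatogonia (SPG) markers. They were chosen by name from the study's marker table, with earlier results of these data known, and make up 4 of the 11 SPG markers and of the 574 germ cell markers that could be found in the data, among 31519 features in all. Since the tables carry transcript identifiers without gene names, each marker was located as the transcript, or run of neighbouring transcripts, whose counts added up to the marker's counts in all 12 libraries. RNA sequencing was done on testes of male Sprague Dawley (SD) rats, with 3 libraries in each of 4 groups. An age of 8 weeks is given for all of them, while the study fed the rats for a time before the experiments began. The stress groups underwent restraint stress followed by ice-water swimming (RS+IS) on every day for 3, 14 or 21 days, while the control rats moved freely in their cages but, like the stressed rats, went without food and water over the same hours. The time point at which the sequenced control testes were taken is not given in the sources used here. The age at sampling can therefore differ between groups and cannot be told apart from the duration of stress. The study calls the 3 samples of a group biological replicates.

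Cyclins are the regulatory subunits that switch on the cyclin-dependent kinases (CDKs). D-type cyclins such as cyclin D1, the product of Ccnd1, act early, when growth signals commit a cell to divide, and E-type cyclins such as cyclin E2, the product of Ccne2, then activate CDK2 at the start of DNA synthesis. Cdk2ap2 encodes a small protein that associates with CDK2, and Atad5 encodes the large subunit of a clamp unloader that takes the sliding clamp PCNA off DNA once it has been copied. In the testis, spermatogonia divide by mitosis, preleptotene spermatocytes carry out the last DNA synthesis of the germ line, and E-type cyclins with CDK2 also act in meiotic prophase.

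Promoter sequences are shown to give the genomic context of the members, taken from a table of RefSeq promoters on the GRCr8 assembly in which 2 of the 4 genes matched. Those of Ccne2 and Ccnd1 are not shown here. The stretches run from 250 bases before to 50 bases after a start of transcription. Both strands were searched for the CCAAT box (CCAAT) and for an E2F site (TTTCGCGC or TTTGGCGC), a word bound by the E2F factors, which RB holds in check until CDKs phosphorylate it. Capitals mark the matches, none of which overlap.
Cdk2ap2, chr1:210820686-210820985, plus strand: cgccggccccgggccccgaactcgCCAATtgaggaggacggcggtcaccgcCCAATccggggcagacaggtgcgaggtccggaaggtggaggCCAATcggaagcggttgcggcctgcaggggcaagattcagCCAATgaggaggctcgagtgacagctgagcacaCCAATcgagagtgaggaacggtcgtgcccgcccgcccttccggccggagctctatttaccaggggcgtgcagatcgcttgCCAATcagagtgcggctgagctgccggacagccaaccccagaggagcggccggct
Atad5, chr10:65568319-65568618, plus strand: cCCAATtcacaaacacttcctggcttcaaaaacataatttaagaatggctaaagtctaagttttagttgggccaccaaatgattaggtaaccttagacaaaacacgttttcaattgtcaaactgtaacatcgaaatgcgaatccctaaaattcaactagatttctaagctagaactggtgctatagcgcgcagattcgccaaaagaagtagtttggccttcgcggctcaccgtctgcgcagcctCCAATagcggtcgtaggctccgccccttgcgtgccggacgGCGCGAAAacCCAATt
The Cdk2ap2 stretch was 67.0% G and C and held 6 CCAAT boxes, a number reached or passed by 0.0510% of the 27457 rat promoters in the table. The Atad5 stretch, at the first of its 3 listed starts, was 45.7% G and C and held 3 CCAAT boxes (3.24% of promoters hold at least 3) and 1 E2F site, which lies on the minus strand. At least 1 CCAAT box stood in 37.7% of all promoters and an E2F site in 0.841%. These matches are letters in a window and do not show that a factor binds there.

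Between 23908048 and 29404590 estimated counts were available per library. Within groups, libraries differed by more than counting noise, with a chi-square per degree of freedom of 33.4 and 30.5 for control replicate 1 against the other controls, 24.1 and 17.3 for 21-day replicate 1 against the other 21-day libraries and 9.23 to 13.3 for the remaining pairs. Control replicate 1 and 21-day replicate 1 also went together across groups. They were the highest and next highest of the 12 libraries for 1434 of 21999 features (6.52%), the largest number among the 66 pairs of libraries, where the next pair had 1088. Among the 574 markers this held for 6, and 2 of these were Ccnd1 and Cdk2ap2. Values for both genes are therefore given with and without these libraries.

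All 4 genes were detected in every library. Per length, as TPM (abundance per transcript length within a library), their order was the same in 12 of 12 libraries, with Ccne2 first, then Cdk2ap2, Atad5 and Ccnd1. The mean over the 12 libraries was 21.5 TPM for Ccne2, higher than 81.6% of all features, 7.49 TPM for Cdk2ap2 (67.7%), 5.37 TPM for Atad5 (63.0%) and 2.83 TPM for Ccnd1 (54.5%). The ranges of the neighbours Cdk2ap2 (5.08 to 11.4 TPM) and Atad5 (4.74 to 6.28 TPM) overlapped. The lowest Atad5 value stood just above the highest Ccnd1 value (range 2.06 to 4.68 TPM), and Ccne2 (16.8 to 27.0 TPM) stood clear of the other 3. The highest library exceeded the lowest by 1.60-fold for Ccne2, 2.27-fold for Ccnd1, 2.24-fold for Cdk2ap2 and 1.33-fold for Atad5. The precision behind these levels differed, since the group means of the estimated counts were 1348 to 2023 for Ccne2, 677 to 836 for Atad5, 231 to 291 for Ccnd1 and 126 to 178 for Cdk2ap2. Whole testis was sequenced, so these levels are sums over all its cells, and for every result here fewer cells of a type and less RNA per cell cannot be told apart.

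**Figure D1:**
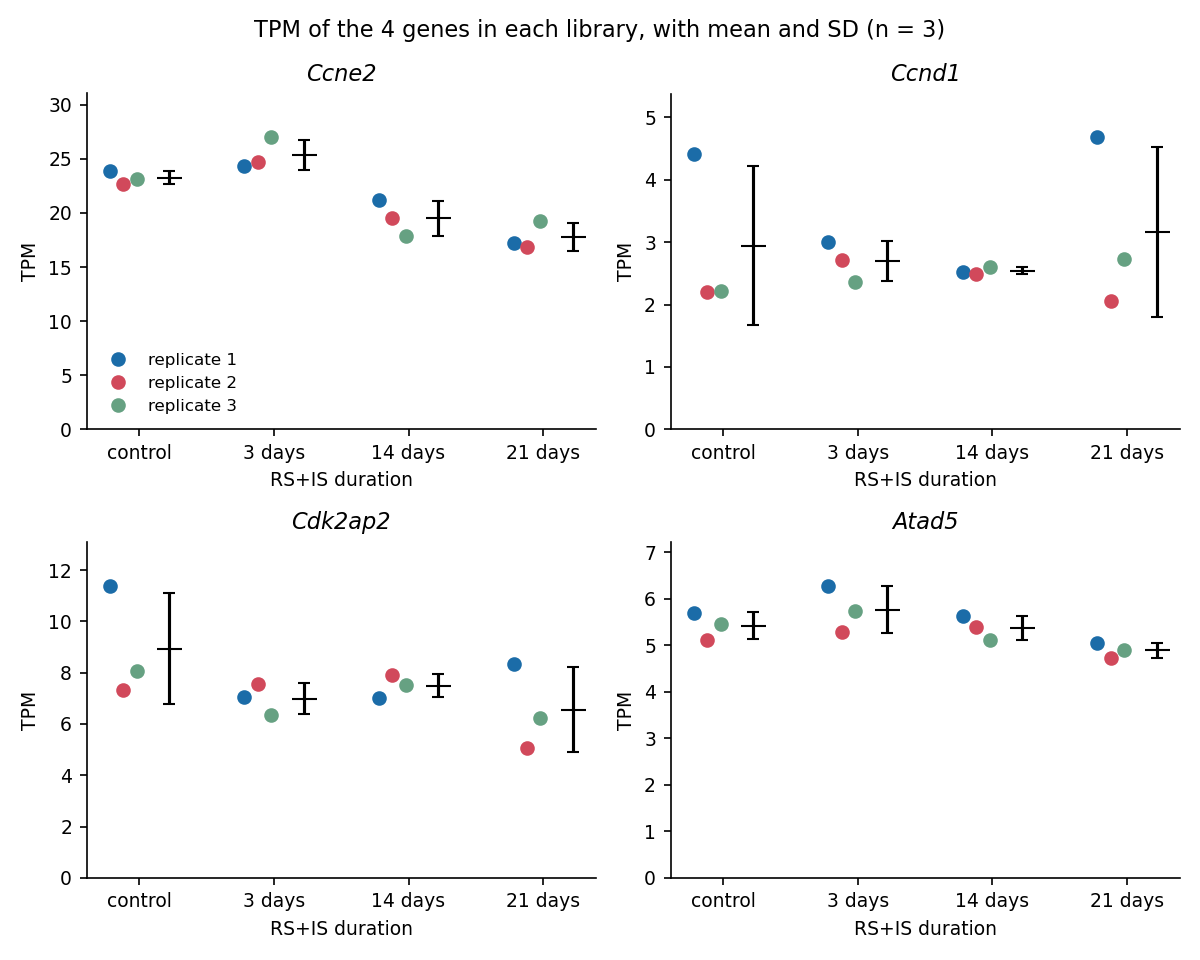
TPM of Ccne2, Ccnd1, Cdk2ap2 and Atad5 in each of the 12 libraries (points, coloured by replicate number) by group, with the group mean and SD (n = 3) beside them; each panel has its own axis from 0. The 14-day and 21-day points of Ccne2 lie below all control points, and the Ccnd1 points of control replicate 1 (4.41 TPM) and 21-day replicate 1 (4.68 TPM) lie far above the other libraries.

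Ccne2 was lower in the testis after 14 and 21 days of RS+IS and slightly above the controls after 3 days. Its single transcript (ENSRNOT00000010696.5, 3027 bases) had 23.9, 22.7 and 23.2 TPM in the 3 control libraries and 24.4, 24.7 and 27.0 TPM in the 3-day stress group. It had 21.1, 19.5 and 17.9 TPM in the 14-day and 17.2, 16.8 and 19.2 TPM in the 21-day stress group. Every 14-day and 21-day library was thus below every control library, and every 3-day library was above the controls by a small step. The control mean was 23.2 ± 0.587 TPM (SD, n = 3). The 3-day mean was 25.4 ± 1.42 TPM (SD, n = 3), the 14-day mean 19.5 ± 1.62 TPM (SD, n = 3) and the 21-day mean 17.8 ± 1.30 TPM (SD, n = 3).

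The estimated counts were tested with edgeR (quasi-likelihood), with Benjamini-Hochberg adjustment over all features. Between the 6 libraries of 14 and 21 days and the 3 controls, Ccne2 fell by 20.1% (log2 fold change -0.32, standard error 0.0642, 95% confidence interval -0.47 to -0.18, adjusted p = 0.0416). It was lower in 6 of 6 libraries, and the two-sided exact permutation test over libraries gave p = 0.0238, the smallest value that 6 against 3 libraries can give. In this comparison 1 of the 4 genes passed the adjusted threshold of 0.05, against 1.62% of the 21642 features tested. One of the 4 genes was under an unadjusted p of 0.05 (20.3% of features), and 1 of the 4 had groups that did not overlap in CPM (counts relative to library size), against 11.3% of 21999 features. The adjusted call was lost in each of the 9 fits that left out 1 of the 9 libraries (adjusted p 0.0508 to 0.127) and without control replicate 1 and 21-day replicate 1 together (log2 fold change -0.29, adjusted p = 0.140), while the log2 fold change of Ccne2 stayed between -0.36 and -0.29.

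Each duration was also compared alone with control, where 3 against 3 libraries cannot give an exact p below 0.1. The log2 fold change of Ccne2 was 0.086 (standard error 0.0575, adjusted p = 0.985) after 3 days, -0.27 (0.0702, adjusted p = 0.267) after 14 days and -0.37 (0.0708, adjusted p = 0.154) after 21 days, so that none passed the adjusted threshold, and the exact p was 0.1 in each. With DESeq2 the adjusted p of Ccne2 was 0.0770 after 14 days and 0.0013 after 21 days. In 1 edgeR fit of all 12 libraries, Ccne2 also passed the adjusted threshold after 21 days and at 21 against 3 days. Against the 3-day group, a comparison that uses no control library, Ccne2 was lower by -0.36 on the log2 scale after 14 days (95% confidence interval -0.53 to -0.19, edgeR adjusted p = 0.202) and by -0.48 after 21 days (-0.64 to -0.31, adjusted p = 0.131), with no overlap between groups. The 21-day and 14-day groups overlapped (log2 fold change -0.098, 95% confidence interval -0.28 to 0.090, adjusted p = 0.999).

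The marker sums of the 3 germ cell stages were taken over the same libraries. The summed TPM of the other 7 SPG markers ranged from 529 to 688 in the control group, 543 to 572 after 3 days, 467 to 517 after 14 days and 448 to 487 after 21 days. Most of this sum came from Hspa5 (243 to 357 TPM over all libraries, highest in control replicate 1) and Slc25a31 (125 to 169 TPM). The summed TPM of the 179 spermatocyte (SPC) markers found ranged, in the same order of groups, from 46093 to 49077, 48469 to 49657, 45726 to 47835 and 43781 to 45604. That of the 384 spermatid markers ranged from 104979 to 123468, 106567 to 114379, 120647 to 128901 and 127367 to 135429. The SPG ranges at 14 and 21 days and the SPC and spermatid ranges at 21 days lay apart from control. The other ranges overlapped with control. Over the 14-day and 21-day libraries, 7 of 11 SPG markers (Ccne2 among them) and 17 of 179 SPC markers were lower at an unadjusted p under 0.05 and none was higher, whereas 72 of 384 spermatid markers were higher and 3 were lower. Of all features, 10.7% were higher and 9.68% lower. The share of lower SPC markers was thus close to that of all features, while 0 of 179 SPC markers were higher. After 21 days alone, 16 of 179 SPC markers were lower and 0 higher, against 5.71% and 8.47% of features. The part of the stage makeup of the tissue in the Ccne2 difference was not tested.

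**Figure D2:**
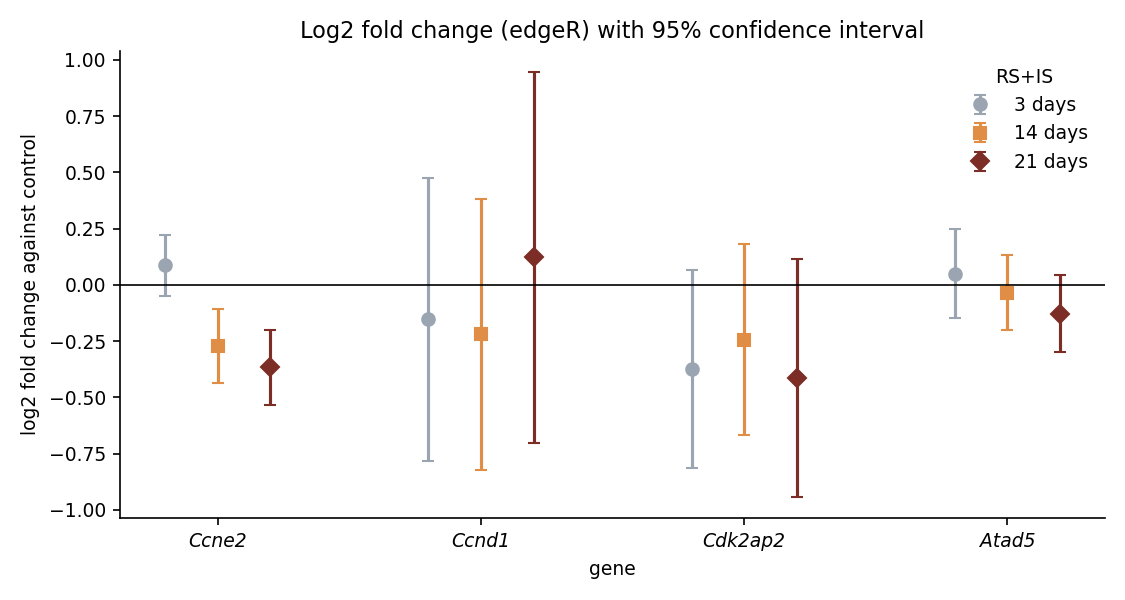
Log2 fold change of each gene after 3, 14 and 21 days of RS+IS against control (points, edgeR), with the 95% confidence interval as bars and a line at 0. The intervals of Ccne2 at 14 and 21 days lie wholly below 0, those of the other 3 genes all cross 0, and those of Ccnd1 are the widest.

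Ccnd1 had no ordered shift with the duration of stress, and its spread lay in 2 of the 12 libraries. It had 4.41, 2.21 and 2.22 TPM in the control group, 3.01, 2.72 and 2.37 after 3 days, 2.52, 2.50 and 2.60 after 14 days and 4.68, 2.06 and 2.73 after 21 days. Control replicate 1 and 21-day replicate 1 were high and the other 10 libraries lay between 2.06 and 3.01 TPM, so that all groups overlapped. The coefficient of variation was 43.0% in the control group and 43.1% in the 21-day group, against 2.22% in the 14-day group. The gene had 2 transcripts, and nearly all of its signal came from ENSRNOT00000028411.3 (3809 bases), since ENSRNOT00000088588.1 (3057 bases) did not exceed 0.22 TPM.

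The log2 fold change of Ccnd1 against control was -0.15 (95% confidence interval -0.78 to 0.48) after 3 days, -0.22 (-0.82 to 0.38) after 14 days, 0.12 (-0.70 to 0.95) after 21 days and -0.042 (-0.64 to 0.55) in the 14-day and 21-day libraries together, and the adjusted p was between 0.731 and 0.986. Over the comparisons among stress groups the log2 fold change was -0.071, 0.25 and 0.34 (14 against 3, 21 against 3 and 21 against 14 days; adjusted p 0.822, 0.670 and 0.999). These signs turned with the libraries used. Without control replicate 1, the value was 0.22 after 3 days, 0.16 after 14 days and 0.34 for 14 and 21 days together, and without 21-day replicate 1 it was -0.23 after 21 days, -0.084 against 3 days and -0.018 against 14 days. Without both libraries it was 0.13 (standard error 0.166, adjusted p = 0.771) after 21 days and 0.15 (0.104, adjusted p = 0.520) for 14 and 21 days together. The intervals leave room for a change of Ccnd1 of about the size seen for Ccne2 in either direction.

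Cdk2ap2 had a negative log2 fold change against control at each duration of stress, but no comparison passed the test. Its transcript (ENSRNOT00000025018.4, 1049 bases) had 11.4, 7.33 and 8.07 TPM in the control group, 7.07, 7.56 and 6.35 after 3 days, 7.03, 7.92 and 7.52 after 14 days and 8.34, 5.08 and 6.25 after 21 days. Control replicate 1 stood above all others, and the 21-day group held both its second highest and its lowest value over the 12 libraries. Against control its log2 fold change was -0.37 (standard error 0.185, edgeR adjusted p = 0.985) after 3 days, -0.24 (0.180, adjusted p = 0.587) after 14 days, -0.41 (0.224, adjusted p = 0.436) after 21 days and -0.33 (0.164, adjusted p = 0.291) for 14 and 21 days together. Without control replicate 1 it was -0.19 after 3 days, -0.055 after 14 days, -0.23 after 21 days and -0.14 for 14 and 21 days together, and without 21-day replicate 1 it was -0.58 after 21 days and -0.38 for 14 and 21 days together. Without both libraries it was -0.41 (standard error 0.192, adjusted p = 0.485) after 21 days and -0.18 (0.160, adjusted p = 0.617) for 14 and 21 days together. After 3 days the CPM of the groups did not overlap, while their TPM did.

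With Ccne2 higher and Cdk2ap2 lower, 2 of the 4 genes had groups that did not overlap in CPM after 3 days, against 9.74% of features, and 0 of the 4 were under an unadjusted p of 0.05 in edgeR (4.04% of features). None of the 21083 features tested passed the adjusted threshold in edgeR (0%), and DESeq2 called 39 features, with Ccne2 and the other 3 genes not among them.

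Atad5 was the least variable of the 4 genes. Its transcript (ENSRNOT00000035642.6, 6073 bases) had 5.69, 5.11 and 5.45 TPM in the control group, 6.28, 5.28 and 5.74 after 3 days, 5.62, 5.39 and 5.11 after 14 days and 5.06, 4.74 and 4.89 after 21 days. The 21-day libraries were all below the controls and below the 3-day libraries, and the other groups overlapped with the controls. The log2 fold change against control was 0.049 (95% confidence interval -0.15 to 0.25) after 3 days, -0.034 (-0.20 to 0.13) after 14 days, -0.13 (-0.30 to 0.043) after 21 days and -0.085 (-0.21 to 0.044) for 14 and 21 days together, with adjusted p between 0.437 and 0.986. Against 3 days it was -0.20 after 21 days (standard error 0.0829, unadjusted p = 0.0454, adjusted p = 0.293, edgeR). None of the 4 intervals against control reaches the log2 fold change of -0.32 of Ccne2 after 14 and 21 days.

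After 14 days, 1 of the 4 genes (Ccne2) was under an unadjusted p of 0.05 (12.1% of features) and had groups that did not overlap (19.5%), and no feature passed the adjusted threshold in edgeR (0% of 21065), while DESeq2 called 343, not Ccne2. After 21 days, 1 of the 4 was under the unadjusted threshold (14.2%) and 2 of the 4 (Ccne2 and Atad5, both lower) had groups that did not overlap (21.9%). None of the 4 was among the 4 features, 0.0189% of 21113, that passed the adjusted threshold in the edgeR fit of these groups alone. DESeq2 called 736 features, Ccne2 among them. Between 14 and 3 days, 1 of the 4 was under the unadjusted threshold (13.4%) and without overlap (20.1%), with 0% of features called after adjustment by edgeR and 415, Ccne2 among them, by DESeq2. Between 21 and 3 days the count was 2 of 4 on both measures (16.6% and 22.8%), with 1 feature, 0.00471% of 21210, called after adjustment by edgeR and 772, Ccne2 among them, by DESeq2. Between 21 and 14 days it was 0 of 4 at an unadjusted p under 0.05 (3.05%) and after adjustment (0% of features by edgeR, 20 features by DESeq2). With 4 genes, 1 gene more or less changes each of these shares widely. The DESeq2 counts here and after 3 days stand without a share of all features, since the number of features behind its adjustment is not given here.

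Across the 12 libraries, log2 CPM of Ccne2 and Atad5 went together and so did that of Ccnd1 and Cdk2ap2, but the relations differed in where they lay. For Ccne2 and Atad5, Pearson's r was 0.660 (permutation p = 0.0178, adjusted over 6 pairs 0.107) and Spearman's rho 0.727 (permutation p = 0.00929, adjusted 0.0557). Within groups, after each group's mean was taken off, r was 0.131. Without the 2 libraries farthest from the median of Ccne2, r with the group means left in was 0.560. For Ccnd1 and Cdk2ap2, r was 0.629 (permutation p = 0.0358, adjusted 0.107) and rho 0.392 (permutation p = 0.210, adjusted 0.631). Within groups r was 0.947. Without control replicate 1 and 21-day replicate 1, r with the group means left in was 0.044, so that the relation across all libraries rests on those libraries. The r within groups without them is not given here. In the other 4 pairs r lay between -0.28 and 0.11. No pair passed the adjusted threshold.

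The markers whose log2 CPM was most like that of each gene were taken from all other 573 markers by Pearson's r over the 12 libraries, which share depth and group, as a description without a test. For Ccne2 they included Slc25a31 (r = 0.870, within groups 0.241), Psma8 (0.855, within groups 0.498), Ube2t (0.846, within groups 0.521) and Sycp3 (0.838, within groups 0.105). All but Slc25a31 are SPC markers of the study, including Sycp3, a part of the synaptonemal complex, and Psma8, a proteasome subunit of the testis. For Atad5 they were Sycp3 (0.788), Pbk (0.786), Gtf2b (0.779), Rpl10l (0.742) and Bcas2 (0.733), of which all but Bcas2 are SPC markers. For Ccnd1 they were Rasa3 (0.802), Rac1 (0.758), Ppp3ca (0.710), Actg2 (0.668) and Cdk2ap2 (0.629), and for Cdk2ap2 they were Nucks1 (0.771), Rac1 (0.738), Tfam (0.690), Hspa5 (0.664) and Ppp3ca (0.643). The median r over all markers was between -0.43 and -0.35 for the 4 genes, so that they ran against most of the marker table, which is largely made up of spermatid markers.

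The 6 markers highest in control replicate 1 and 21-day replicate 1 were Ccnd1 and Cdk2ap2, with Rasa3, Rac1, Ppp3ca and Actg2, the 4 other genes most like Ccnd1. Likeness to Ccnd1 was taken over the same libraries, so these lists are not independent. Actg2, the gene of smooth muscle gamma actin, which the study's table holds as a spermatid marker, had 9.71 TPM in control replicate 1 and 8.33 TPM in 21-day replicate 1, against 1.83 to 6.78 TPM in the other 10 libraries. Rac1, a small GTPase of the actin cytoskeleton, had 24.7 and 21.8 TPM there, against 15.7 to 21.6 TPM elsewhere. Lists of markers of somatic testis cells were not analysed here, and the part of such cells in the Ccnd1 and Cdk2ap2 values was not tested.

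**Figure D3:**
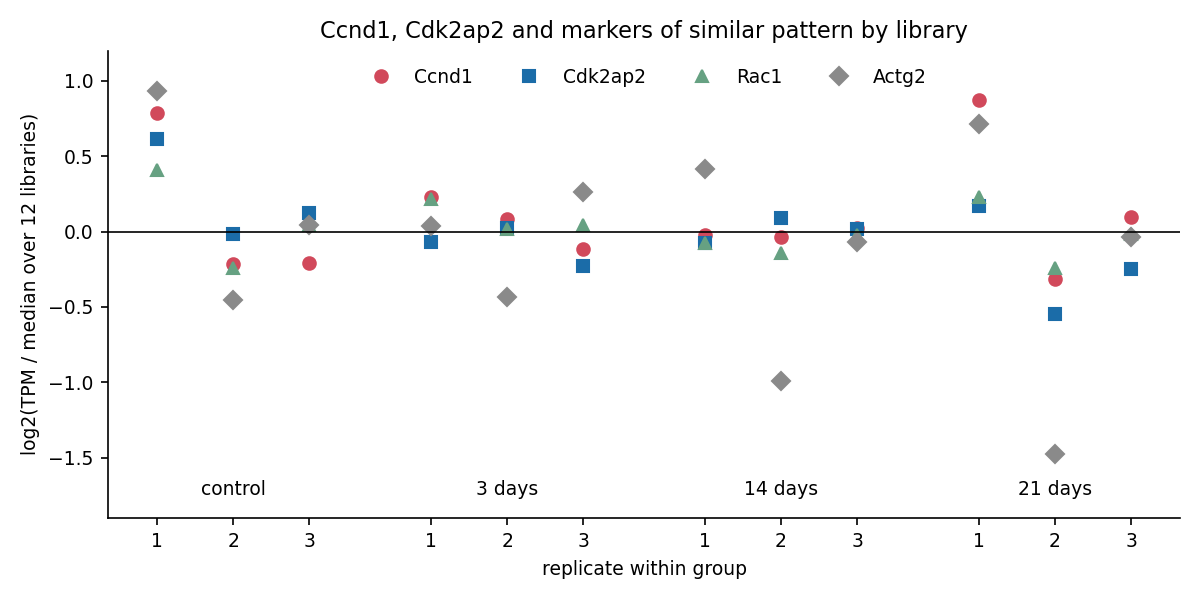
TPM of Ccnd1, Cdk2ap2, Rac1 and Actg2 in each of the 12 libraries, as log2 of the ratio to the gene's own median over the libraries, by group and replicate number. All 4 genes stand highest in control replicate 1 and 21-day replicate 1, and the remaining Ccnd1 points lie near 0.

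Other cell cycle and replication markers of the study's table were compared as 5 lists with 28 genes, all of which were tested. After 14 and 21 days together, 2 of the 28 genes were higher than control and 6 lower at an unadjusted p under 0.05, and 1 passed the adjusted threshold. Of all features 10.7% were higher, 9.68% lower and 1.62% past the adjusted threshold. The median log2 fold change of the 28 genes was -0.045, against -0.0097 over all features. After 3, 14 and 21 days alone, 1, 3 and 2 genes were higher and 0, 0 and 6 lower at an unadjusted p under 0.05. Of all features, 2.03%, 7.20% and 8.47% were higher and 2.01%, 4.87% and 5.71% lower. The medians were -0.0045, -0.015 and -0.053, against -0.0086, -0.012 and -0.0031 over all features. The count of 6 lower genes after 21 days was between 0 and 10 under other settings. For 14 and 21 days together, the 2 higher genes (Cdkn1c and Nabp1) are spermatid markers of the study. The 6 lower genes (Cks2, Cdc20, Pbk, Xrcc4, Ube2t and Smc4) are SPC markers. The part of the stage makeup of the tissue in these differences was not tested.

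Among the CDK partners and regulators, Cdkn1c, a spermatid marker of the study that encodes the CDK inhibitor p57, rose over 14 and 21 days taken as 1 group. Its levels were 3.75, 3.48 and 3.66 TPM in the control group, 4.66, 5.41 and 4.29 after 3 days, 5.09, 4.86 and 5.84 after 14 days and 5.71, 6.07 and 5.22 after 21 days. All 9 stress libraries were above all controls. Its log2 fold change was 0.36 (adjusted p = 0.985) after 3 days, 0.51 (0.278) after 14 days, 0.66 (0.168 in edgeR, 0.0302 in DESeq2) after 21 days and 0.58 (standard error 0.122, adjusted p = 0.0488) for 14 and 21 days together, a call that was lost in each fit that left out 1 library. Cks2, a small CDK-binding protein needed in meiosis, had a log2 fold change of -0.17 (unadjusted p = 0.0438) and Spdya, an activator of CDK2 at meiotic telomeres, one of -0.13 for 14 and 21 days together and -0.20 (unadjusted p = 0.0281) after 21 days. Ccna1, the cyclin A that is found in spermatocytes, stood at 94.1 to 104 TPM in all 12 libraries, with a log2 fold change of -0.0049 that turned sign under other settings.

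Of the 5 replication and repair genes, Xrcc4, a partner of the ligase that joins broken DNA ends, stood at -0.45 on the log2 scale (standard error 0.153, adjusted p = 0.144) for 14 and 21 days together, and Ube2t, the ubiquitin-conjugating enzyme of the Fanconi anaemia pathway, one of -0.22 (0.0874, adjusted p = 0.193). Nabp1, a protein that binds single-stranded DNA, had 0.20 (0.0556, adjusted p = 0.0912 in edgeR and 0.0128 in DESeq2, and 0.0498 in edgeR without control replicate 2), and its 14-day and 21-day libraries were all above the controls. The genes tied most closely to the Atad5 protein gave no difference by the test. Wdr48, whose product belongs to the deubiquitinase that ATAD5 brings to PCNA, had 0.066 and Dscc1, a subunit of another clamp loader complex, had 0.13 at a mean of 1.22 to 1.33 TPM per group.

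Among the 10 genes of mitotic and meiotic division, Cdc20, an activator of the anaphase-promoting complex, stood at -0.21 on the log2 scale (unadjusted p = 0.0365) and Pbk, a mitotic kinase, one of -0.18 (unadjusted p = 0.0439) for 14 and 21 days together, while the other 8 had an unadjusted p above 0.05. Of the 5 genes of chromosome structure, the condensin subunit Smc4 had -0.14 (unadjusted p = 0.0380), and Rcc1, the exchange factor of the GTPase Ran, had 0.15 after 14 days. Of the 2 centrosome genes, neither was under an unadjusted p of 0.05 against control. After 14 days against 3 days, 4 of the 28 listed genes were higher and 4 lower at an unadjusted p under 0.05. Of all features, 7.74% were higher and 5.67% lower. At 21 against 3 days 4 genes were higher and 8 lower, against 8.23% and 8.33% of features. None of the 28 passed the adjusted threshold in either comparison. Kif2c (0.18 and 0.28) and Knstrn (0.22 and 0.34) were higher in both and Smc4 (-0.18 and -0.24) lower. Ccp110 (-0.21, unadjusted p = 0.0349) and Cep72 (-0.13, unadjusted p = 0.0379) were lower after 14 days. Cep72 was also lower after 21 days (-0.25, unadjusted p = 0.0216).

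**Figure D4:**
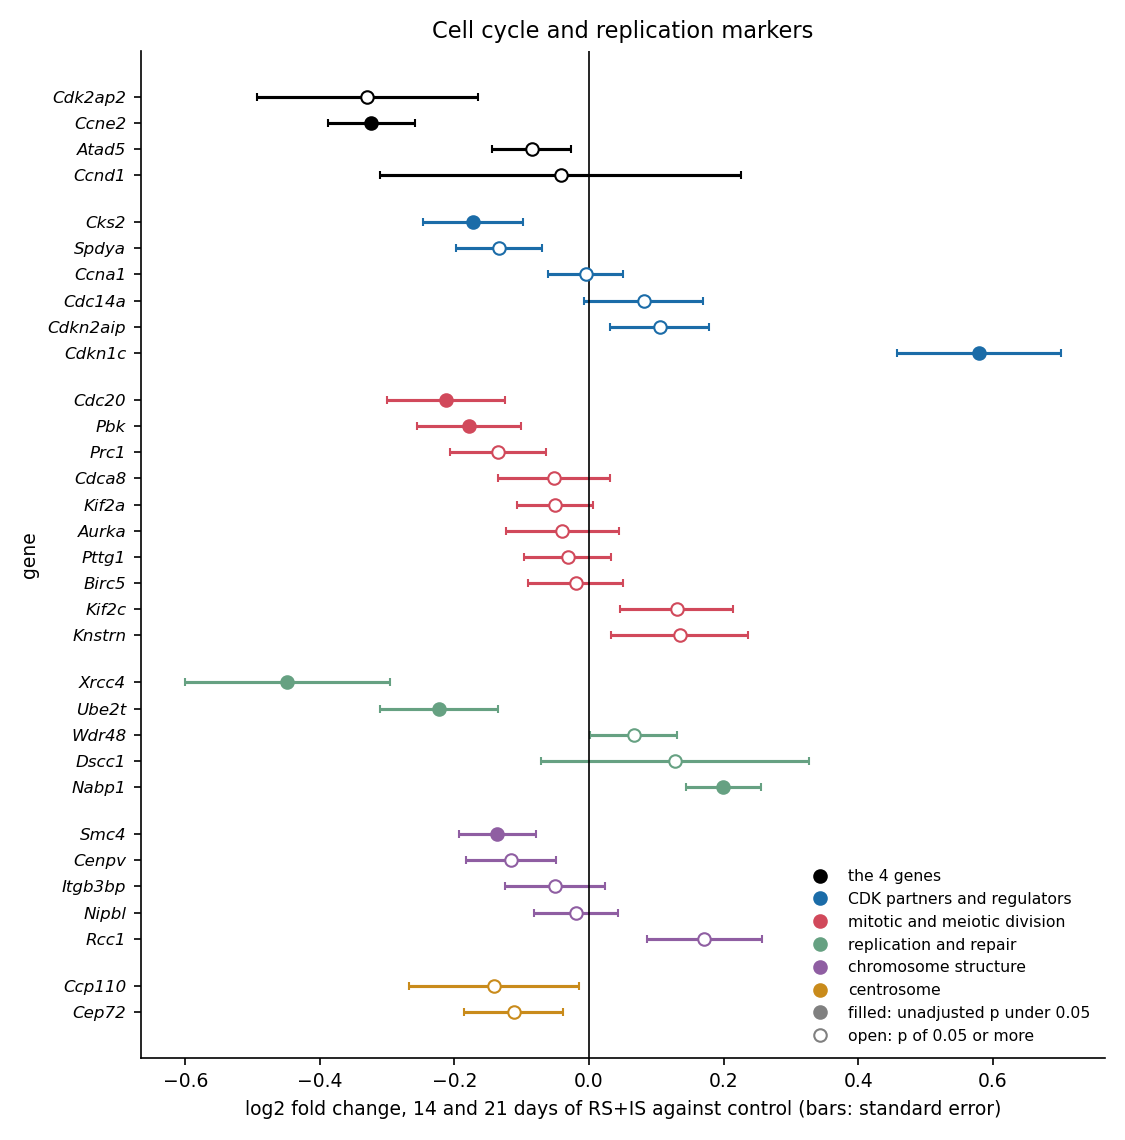
Log2 fold change after 14 and 21 days of RS+IS against control for the 4 genes and the 28 listed markers, grouped by list (points, edgeR), with the standard error as bars; filled points have an unadjusted p under 0.05. Ccne2 (-0.32) and Cdkn1c (0.58) are the filled points with an adjusted p under 0.05, and the other genes lie between -0.45 (Xrcc4) and 0.20 (Nabp1).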

How the data were processed

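For each of 12 libraries the authors deposited 31715 Ensembl transcripts with their length, effective length, estimated count and TPM. Per the study's methods, reads were trimmed with Trimmomatic, aligned to Rnor_6.0 with HISAT2 and counted with HTSeq-count. Versions are not given in the sources used here, and the effective lengths point to a transcript quantifier that is not named. TPM, as deposited, is the count over effective length at a common total, and for the 4 genes it followed from the counts to within 0.00050%.

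Marker genes were located by their counts in the 12 libraries (tolerance 1 count), with ties settled by TPM. Of 578 markers, 574 matched a single run, and 4 (Calm2, Lrrc57, Nol8 and Stra8) did not and were left out as markers. Estimated counts were summed per marker and rounded to whole numbers. Groups were taken from the labels. Comparisons were fitted on the libraries of the groups compared with edgeR 4.0.16 (R 4.3.3), with TMM, filterByExpr and the quasi-likelihood test, and p-values were adjusted by the Benjamini-Hochberg method over all features. Standard errors are the log2 fold change over the square root of F. Exact permutation tests over libraries were two-sided and used log2 CPM with a prior count of 2. Correlations used 100000 permutations. Python 3.11.15 and pandas 2.3.3 handled the tables. The fits were tested on simulated data.

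The members and the lists were chosen with earlier results of these data known. Named genes were the 4 members, the listed markers with an unadjusted p under 0.05 in a comparison with control, the partners Wdr48, Dscc1, Ccna1, Cks2, Spdya and Cdkn1c, and the 5 markers most like each member. Outside this rule, Kif2c, Knstrn, Ccp110 and Cep72 are named for the comparisons with 3 days. One item is not reported here. Alternatives were other size factors, other filters, a replicate block, 1 fit of all libraries, DESeq2 1.42.0, limma 3.58.1 on log2(TPM + 1) and log2(TPM + 0.1), single transcripts and each library left out. The fits without both control replicate 1 and 21-day replicate 1 were added after the data had been seen. Intervals and tests describe the spread between these samples.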

Additional observations from a re-analysis of the deposited data

Results flagged for a closer look

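Ccnd1 in 21-day replicate 1 stood at 16.6 CPM, against 8.01 to 9.81 CPM in the other 5 libraries of 14 and 21 days of RS+IS. Its gap to the next library was 0.792 of the range of the 6 libraries, above the 95% critical value of Dixon's test for 6 values, which chance passes in about 1 in 20 groups. The other 3 genes had no such library. Control replicate 1, in a group of 3 that was not tested, had 15.2 CPM.

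The Ccne2 values lay on opposite sides of the controls. Every 3-day library lay above all controls (log2 fold change 0.086, 95% confidence interval -0.050 to 0.22, not past the test) and every 14-day (-0.27) and 21-day library (-0.37) lay below them. Both sets of values share the control libraries. The direct tests of 14 days and 21 days against 3 days, in edgeR, gave adjusted p = 0.202 and 0.131, and in DESeq2 0.0042 and 7.9e-05.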

How the results depend on the processing

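For the 4 genes, 28 log2 fold changes were each recomputed under 16 to 20 alternatives, which gave 468 comparisons in all. In 434 the direction and the side of the adjusted threshold stayed, and 15 of the 28 results kept both under every alternative tried. The cause of the changes below was not tested.

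The Ccne2 call for 14 and 21 days together was lost without a low-count filter (-0.33, adjusted p = 0.0509) and with limma on log2(TPM + 1) (-0.31, adjusted p = 0.0772) and on log2(TPM + 0.1) (-0.32, adjusted p = 0.0758). It was also lost with each single library left out and without control replicate 1 and 21-day replicate 1 together. Over all these left-out fits the value was -0.36 to -0.29, the latter without both. In DESeq2 the adjusted p of Ccne2 for 14 and 21 days together was 0.000385, and the number of features called there is not given here. Ccne2 passed where the edgeR fit of the compared groups alone had not in 3 comparisons. These were 21 days against control (-0.36 in 1 edgeR fit of all 12 libraries, -0.37 in DESeq2), 14 against 3 days (-0.36 in DESeq2) and 21 against 3 days (-0.45 in 1 edgeR fit of all libraries, -0.46 in DESeq2).

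The replicate numbers of the labels were not treated as pairs, since no comparison had a correlation of deviations over 0.1 in every pair (-0.12 to 0.22 over all pairs). This limit cannot decide whether samples with the same number were handled together. Control replicate 1 and 21-day replicate 1, which went together, share a number. With the replicate number as a block, Ccne2 for 14 and 21 days together was -0.32 (adjusted p = 0.0821), features called there went from 351 to 17, and no other call of the 4 genes changed.

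All reversed signs of the 4 genes came from leaving out libraries and none was a called value. Over these fits Ccnd1 ranged from -0.31 to 0.22 after 3 days, -0.38 to 0.16 after 14 days, -0.23 to 0.49 after 21 days and -0.23 to 0.34 for both together (0.15 without control replicate 1 and 21-day replicate 1). It ranged from -0.16 to 0.011 at 14 against 3 days, -0.084 to 0.47 at 21 against 3 days and -0.018 to 0.55 at 21 against 14 days. Atad5 ranged from -0.016 to 0.10 after 3 days, and Cdk2ap2 from -0.21 to 0.064 at 21 against 3 days. Ccna1 for 14 and 21 days together turned to 0.012 with a minimum of 10 counts in every library, to 0.0070 in 1 fit of all libraries, and ranged from -0.021 to 0.024 with libraries left out.

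The Cdkn1c call for 14 and 21 days together was also lost with total count scaling (adjusted p = 0.0504), no filter (0.0620), the block (0.0892) and each library left out (0.0619 to 0.134). After 21 days alone it passed in 1 fit of all libraries (0.0314) and in DESeq2 (0.0302). Of the 28 listed genes, those lower after 21 days numbered 0 without control replicate 2 or 21-day replicate 1, 2 without control replicate 3, 1 without 21-day replicate 3 and 10 with limma on TPM. Those lower for 14 and 21 days together numbered 0 without control replicate 2, 2 without control replicate 3 or 21-day replicate 3, 3 without 14-day replicate 1 or 21-day replicate 1 and 3 with a minimum of 10 counts. Counting alone gives a coefficient of variation of 8.91% for Cdk2ap2 and 5.87% for Ccnd1 in the 21-day group, against 25.2% and 43.1% observed.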
